A study of Xenopus laevis with 8 samples.

Results

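The genes described here encode the subunits, regulators and assembly factors of the proteasome, the protease complex that degrades ubiquitin-tagged proteins. They were chosen by symbol: the array annotation, without the .L or .S ending, had to start with psma, psmb, psmc, psmd, psme, psmf or psmg, or to read pomp, adrm1 or sem1. The rule found 71 probe sets of 15491 that are not controls, of which 64 carry 1 symbol and 7 are annotated to both copies of a gene. The 64 probe sets measured 56 gene copies, 31 of them .L and 25 of them .S, from 43 genes. All 56 lay above the floor set for low signal on every array, so that none was lost to the filter on dim features. They were measured in hindlimb buds of Xenopus laevis tadpoles at stage 52, on 8 Affymetrix arrays. The 4 cyclopamine arrays hold tadpoles kept for 24 h in water with 1 µg/ml cyclopamine, a plant alkaloid that blocks the Hedgehog signal transducer Smoothened, and the 4 ethanol arrays hold tadpoles given the vehicle for the same 24 h. Each array holds RNA from 1 pool of 18 to 22 buds, and 1 ethanol and 1 cyclopamine pool exposed and processed together form each of 4 pairs, where clutch A gave pairs 1 and 2 and clutch B gave pairs 3 and 4. No strain or allele is given for the tadpoles, whole buds were pooled across animals, and whether pools of a clutch shared a tank is not given, so that p-values measure the spread between these pools.

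The proteasome consists of a barrel-shaped core particle and caps that dock at its ends. The core stacks rings of alpha subunits, which form the gate, and rings of beta subunits, 3 of which (psmb5, psmb6 and psmb7) carry the proteolytic sites and can be replaced in immune and interferon-treated cells by the immunoproteasome subunits. The regulatory cap has a ring of ATPases (psmc genes) that unfold the substrate, and non-ATPase subunits (most psmd genes and adrm1) that bind ubiquitin, remove it or hold the cap together. Activators of the psme family open the gate without ATP, psmf1 encodes an inhibitor of the core, and dedicated chaperones (pomp, the psmg genes, psmd5, psmd9 and psmd10) guide the order of assembly. X. laevis is an allotetraploid frog, so that many genes are present as a .L and a .S copy, 1 from each ancestral genome.

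Values are log2 intensities after quantile normalization, and a fold change is their difference between groups as fitted with limma across 12380 features. The medians of the deposited arrays differed by up to 0.21 on the log2 scale. The pools differed in the levels of tissue markers. The 6 cartilage markers tested had a mean log2 value of 8.41 to 8.85 on the ethanol arrays and 8.56 to 9.64 on the cyclopamine arrays, with the highest value on cyclopamine array 4. Of these, matn1.L was at the floor on 7 of 8 arrays. The mean of 13 muscle markers ranged from 7.05 to 8.64 with ethanol and 7.27 to 8.92 with cyclopamine, lowest on ethanol array 1 and cyclopamine array 1. The mean of 8 epidermis markers was lowest on ethanol array 1 and cyclopamine array 4, at 8.01 and 8.06. Single epidermis markers could differ from the mean, as krt19.S was lowest on cyclopamine array 1, at 7.01. The part of tissue content in the results below was not tested.

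Proteasome genes were mostly slightly lower in cyclopamine-exposed buds, and none passed the test. Of 56 copies, 49 had a log2 fold change below 0, against 49.9% of all features, with a median of −0.10 against 0.00 over all features. None had a Benjamini-Hochberg adjusted p under 0.05 in limma, where 0.0162% of all features did. At an unadjusted p under 0.05, 1 copy was lower (3.88% of all features were lower at that threshold) and 0 were higher. With clutch as a block the former count was 5, against 6.01% of all features in that fit, all with an adjusted p of at least 0.373 in limma. In bulk RNA, fewer cells of a type and less RNA per cell cannot be told apart.

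**Figure D1:**
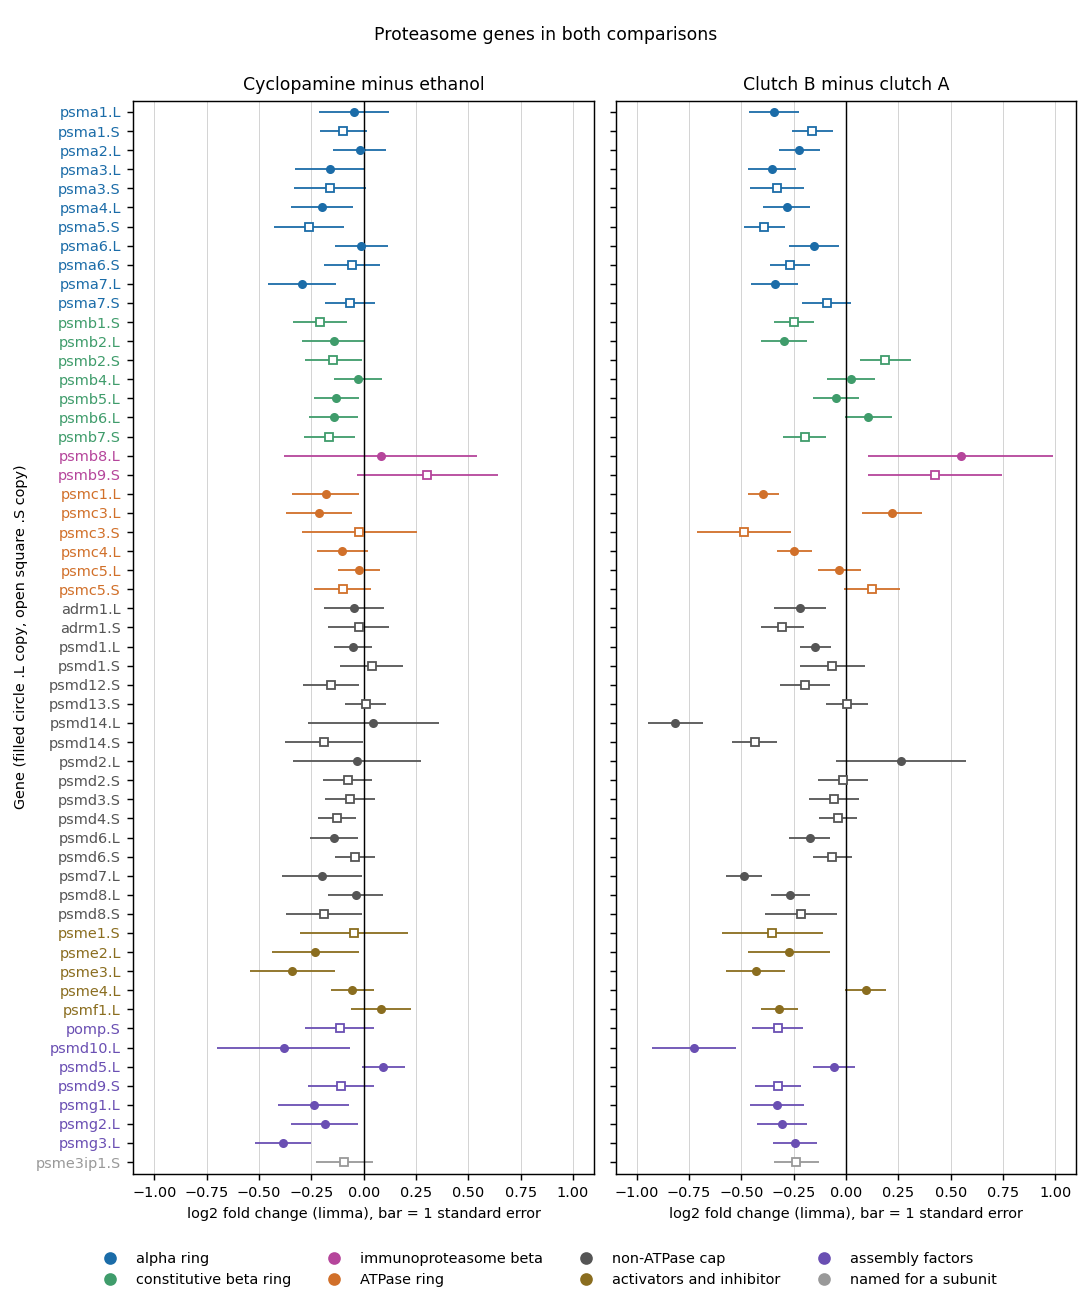
log2 fold change of each of the 56 copies from limma, cyclopamine minus ethanol on the left and clutch B minus clutch A on the right, with 1 standard error as a bar, ordered and coloured by subcomplex. On the left 49 points lie below 0, 22 of them by more than their bar, and on the right 46 lie below 0, with psmd14.L at −0.82.

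The measured copies of the constitutive core particle were all below 0, by small amounts. All 11 alpha copies and all 7 beta copies had a log2 fold change below 0, with medians of −0.10 and −0.14. The beta copies come from 6 of 7 genes, without psmb3. psma7.L and psma5.S, both structural alpha subunits, had the smallest p-values of their ring. psma5.S was at 10.41, 10.27, 9.80 and 10.09 on ethanol arrays 1 to 4 and at 10.07, 10.07, 9.79 and 9.59 on cyclopamine arrays 1 to 4. It was lower in 4 of 4 pairs although the groups overlap, with a log2 fold change of −0.26 (standard error 0.17, limma adjusted p = 0.893). In pair 3 only its dimmest probe set fell, from 6.27 to 6.15. The others stayed at 11.48 or rose from 11.65 to 11.74. psma7.L read 11.97, 12.00, 11.47 and 11.70 with ethanol and 11.62, 11.64, 11.54 and 11.15 with cyclopamine, so that pair 3 ran the other way. Among the beta subunits, psmb1.S, a structural subunit, was at 12.23, 12.31, 11.83 and 12.09 with ethanol and 11.97, 12.02, 11.89 and 11.73 with cyclopamine, and its difference was −0.21 (standard error 0.13). psmb7.S, which carries the trypsin-like site, had −0.17 (standard error 0.12). Both were lower in 3 of 4 pairs, and for both the adjusted p in limma was above 0.05, at 0.893 and 0.920.

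The regulatory cap had a median of −0.07 over 23 copies, against −0.14 over the 18 core copies, and this difference was not tested. In the ATPase ring 6 of 6 copies lay below 0 with a median of −0.10, and in the non-ATPase cap 14 of 17 did with a median of −0.05. The ATPase copies come from 4 of 6 genes, since psmc2 and psmc6 had only probe sets annotated to both copies. Those of the non-ATPase cap come from 11 of 13 genes. psmc1.L, an ATPase at the base of the cap, read 9.51, 9.58, 9.16 and 9.13 with ethanol and 9.42, 9.30, 8.93 and 9.00 with cyclopamine. These averages of 2 probe sets were lower in each pair, and within each group the clutch B arrays were the low ones. Neither probe set was lower in each pair. The first rose from 8.96 to 9.03 in pair 1, and the second from 9.40 to 9.66 in pair 4. The log2 fold change of psmc1.L was −0.18 (standard error 0.16) and that of psmc3.L was −0.21 (standard error 0.16). In the non-ATPase cap the smallest p-values belonged to psmd4.S, a ubiquitin receptor, at −0.13 (standard error 0.09), and psmd6.L, a structural subunit, at −0.14 (standard error 0.11). A probe set annotated to both copies of psmd6 had −0.26 and is described below. The scaffold subunit psmd1.S had 0.04, which was −0.03 with array medians subtracted and −0.00018 on the intensities as deposited.

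Both immunoproteasome copies varied widely between pools and lay on the other side of 0. psmb8.L, the inducible counterpart of psmb5, was at 7.14, 8.07, 8.04 and 9.01 on ethanol arrays 1 to 4 and at 7.44, 8.68, 8.87 and 7.60 on the cyclopamine arrays. psmb9.S, the counterpart of psmb6, was at 6.57, 7.54, 7.01 and 7.06 and at 6.56, 7.27, 8.15 and 7.42. The groups overlap almost fully, and both genes were low in both pools of pair 1. Their log2 fold changes were 0.08 (standard error 0.46) and 0.30 (standard error 0.34), with adjusted p-values of 0.991 and 0.937 in limma, and that of psmb8.L was −0.23, −0.10 or −0.16 without ethanol array 1, cyclopamine array 2 or cyclopamine array 3. The median residual standard deviation of the pair was 0.64, against 0.21 over all 56 copies and 0.26 over all features. Other immune genes varied too: over 9 immune markers the median deviation from each gene's mean was −0.39 on ethanol array 1 and −0.31 on cyclopamine array 4, and between −0.05 and 0.26 on the other arrays. The mean log2 value of these markers was 7.48 to 8.13 with ethanol and 7.61 to 8.25 with cyclopamine, 4 of 9 were below 0 with cyclopamine, and 4 of 9 were lower in clutch B. The part of immune cells in these values was not tested.

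**Figure D2:**
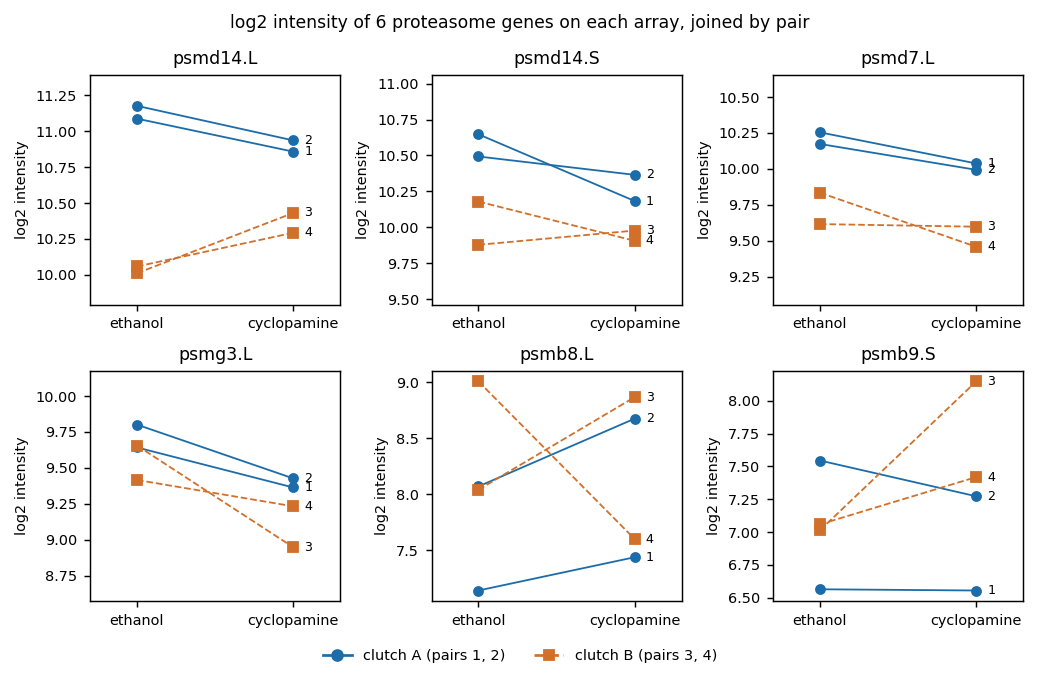
log2 intensity of 6 copies on each array, with the ethanol and cyclopamine pool of a pair joined by a line and the pair number at the right, and clutch A as filled circles with solid lines and clutch B as squares with dashed lines. psmd14.L separates by clutch, psmg3.L slopes down in each pair, and psmb8.L spans 7.14 to 9.01 with no common slope.

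Of the activators and the inhibitor, 4 of 5 copies were below 0 with a median of −0.05. All 5 were higher with cyclopamine in pair 3, and 2, 4 and 4 were lower in pairs 1, 2 and 4. psme3.L, the subunit of the nuclear activator, had the most negative difference of the group at −0.34 (standard error 0.20, adjusted p = 0.887 in limma). It read 9.38, 9.49, 8.73 and 9.06 with ethanol and 8.78, 9.19, 8.82 and 8.51 with cyclopamine, lower in 3 of 4 pairs. The interferon-inducible partners psme1.S and psme2.L had −0.05 (standard error 0.26) and −0.23 (standard error 0.21). psme4.L, a large activator known from spermatogenesis and DNA repair in mammals, had −0.05 (standard error 0.10), and the inhibitor psmf1.L had 0.08 (standard error 0.14). Leaving out ethanol array 2 or cyclopamine array 4 turned psme1.S to 0.09 or 0.18.

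The assembly factors held the single copy with an unadjusted p under 0.05. psmg3.L, a chaperone of alpha-ring assembly, was at 9.64, 9.80, 9.66 and 9.42 on the ethanol arrays and at 9.36, 9.43, 8.95 and 9.23 on the cyclopamine arrays. All 4 pairs were lower with cyclopamine, and the groups overlap only through cyclopamine array 2 and ethanol array 4. The difference of −0.39 (standard error 0.13) on the log2 scale, 1.31-fold lower, had an unadjusted p of 0.0207 and an adjusted p of 0.701 in limma. Without ethanol array 2 or cyclopamine array 3 its unadjusted p in limma was 0.0559 or 0.0527. The other chaperones of the alpha ring were lower in 3 of 4 pairs, psmg1.L at −0.24 (standard error 0.17) and psmg2.L at −0.19 (standard error 0.16). pomp.S, which acts in beta-ring assembly, had −0.11 (standard error 0.16). The chaperones of the ATPase ring were uneven: psmd10.L had −0.38 (standard error 0.32), psmd9.S −0.11 (standard error 0.16) and psmd5.L 0.09 (standard error 0.10). psme3ip1.S, which encodes a protein named for binding the nuclear activator, had −0.09 (standard error 0.14).

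The shift was not shared by all pairs as numbered. In clutch B the deviations over all features correlated better crosswise than as numbered. Ethanol array 3 with cyclopamine array 4 gave 0.51 and ethanol array 4 with cyclopamine array 3 gave 0.28, against 0.30 in pair 3 and −0.10 in pair 4. The sample titles match the numbering: both arrays 3 are labelled clutch B, group 1, and both arrays 4 clutch B, group 2. The values of pairs 3 and 4 and the counts over 4 pairs depend on this match, and another was not tested. The number of copies below 0 was 45, 46, 10 and 48 of 56 in pairs 1 to 4, where 5903, 6090, 5921 and 5703 of all 12380 features lay below 0. In pair 3 every constitutive beta copy and 10 of 11 alpha copies were higher with cyclopamine, and in pair 4 all 18 were lower. The alpha-ring medians were −0.22, −0.15, 0.19 and −0.44 in pairs 1 to 4, and those of the non-ATPase cap were −0.21, −0.13, 0.07 and −0.12. The assembly factors followed the alpha ring in sign, with −0.26, −0.27, 0.17 and −0.42. The copies lower in 4 of 4 pairs were psma5.S, psmc1.L, psmd7.L and psmg3.L, 4 of 56 against 9.41% of all features, and 0 were higher in 4 of 4 pairs, against 6.47% of all features. For psma5.S, psmc1.L and psmd7.L this holds for the average of their probe sets and not for each probe set. In pair 3, for example, the brighter probe set of psmd7.L rose from 10.06 to 10.10. Without pair 3, 52 of 56 copies were below 0, against 50.1% of all features. In that fit 0 were lower at an unadjusted p under 0.05 in limma, against 3.44% of all features. Without pair 1, 2 or 4, 40, 45 or 43 of 56 copies were below 0, against 50.9%, 49.9% or 52.2% of all features.

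**Figure D3:**
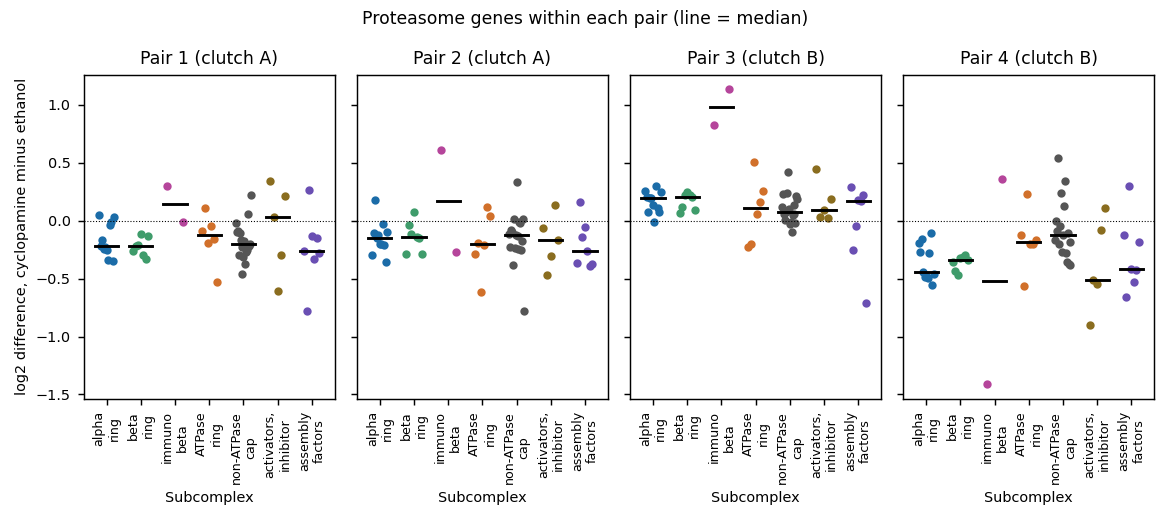
log2 difference, cyclopamine minus ethanol, of every copy within each of the 4 pairs, by subcomplex, with the median of each subcomplex as a line. The core subunits lie mostly below 0 in pairs 1, 2 and 4 and above 0 in pair 3.

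The level of the proteasome genes also differed between pools of 1 treatment. The median deviation of the 56 copies from their own means was 0.19, 0.24, −0.18 and 0.06 on ethanol arrays 1 to 4 and 0.02, 0.04, −0.06 and −0.22 on cyclopamine arrays 1 to 4. The ethanol pools thus spread from the second lowest to the highest, on both sides of all cyclopamine pools but the fourth. On ethanol array 1, 46 of 56 copies lay above their own mean, on ethanol array 3 only 5 did, and on cyclopamine array 4 only 8. The highest value was on ethanol array 1 or 2 for 45 of 56 copies, against 30.4% of all features, and the lowest on ethanol array 3 or cyclopamine array 4 for 41 of 56, against 26.8%. These are the arrays where the same copies had their highest and lowest medians. The distance from all features is thus partly fixed by the choice of arrays and is no test. Over all ethanol arrays together, 53 of 56 copies had their highest value there, against 48.3% of all features. The lowest values did not separate by treatment in this way. They were on ethanol array 3 for 19 copies and on cyclopamine array 4 for 22, against 1120 and 2201 of all 12380 features. All 11 alpha copies had their lowest value on ethanol array 3 or cyclopamine array 4. Leaving out 1 array at a time gave 41 to 51 of 56 copies below 0, against 49.3% to 51.3% of all features. The number lower at an unadjusted p under 0.05 in limma was 0 without ethanol array 2 and 8 without ethanol array 3. It was 2 without ethanol array 1 or cyclopamine array 2. The shares of all features in those fits were 3.30%, 4.99%, 2.69% and 4.54%, in the same order.

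**Figure D4:**
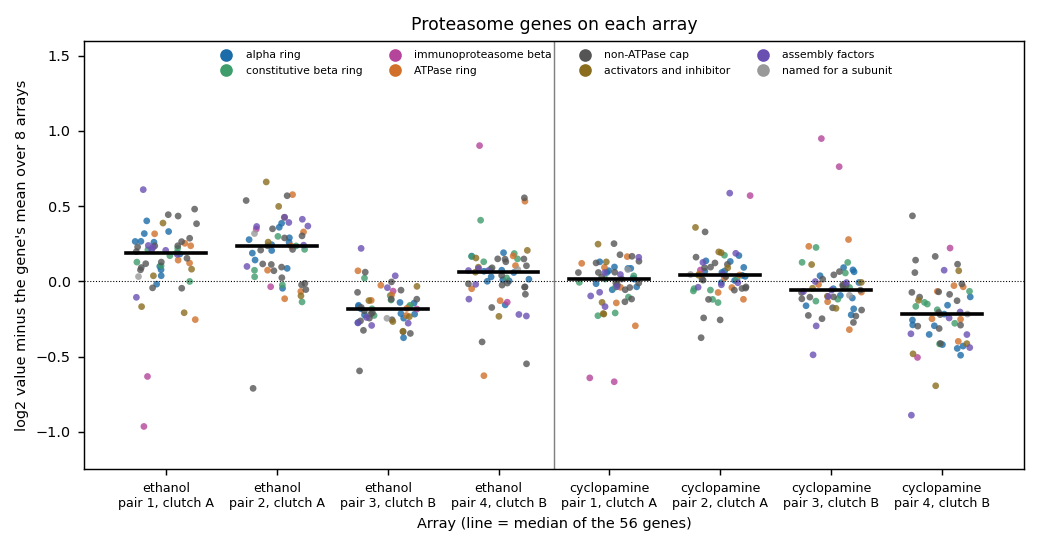
log2 value of each of the 56 copies minus its own mean over the 8 arrays, by array, coloured by subcomplex, with the median as a line. Ethanol arrays 1 and 2 lie highest and ethanol array 3 and cyclopamine array 4 lowest, and the immunoproteasome copies lie far from the rest on some arrays.

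More proteasome copies had an unadjusted p under 0.05 in limma between clutches than between treatments, 23 against 1. The 2 fits differ, since the treatment fit had no covariate. With clutch as a block its count was 5, where 6.01% of all features were lower. With treatment as a covariate, 46 of 56 copies were lower in clutch B (51.5% of all features were), with a median log2 fold change of −0.23 against −0.01 over all features. At an unadjusted p under 0.05 in limma, 23 were lower, against 12.1% of all features, and 0 were higher, against 9.8%. The former count was 8 without ethanol array 3, where 8.63% of all features were lower, and 12 without ethanol array 2 or cyclopamine array 4, where 9.24% and 9.39% were. On 12 copies every array of clutch B lay below every array of clutch A, against 6.46% of all features, and on 0 copies above. Within the ethanol arrays alone 49 of 56 were lower in clutch B, with a median of −0.26, where 6250 of all 12380 features were lower. Within the cyclopamine arrays alone 42 were lower, with a median of −0.17, where 5998 of all features were. A single copy, psmd14.L, had an adjusted p under 0.05 and was lower, against 0.751% of all features. Exposure and extraction went by pair, and each pair holds 1 clutch, so that clutch and these steps cannot be told apart. The split over all features moved with the scaling. At an adjusted p under 0.05 in limma, 93 were lower and 66 higher, and on the intensities as deposited 66 were lower and 75 higher. At that threshold 1 proteasome copy was lower as deposited, and 2 with array medians subtracted. By sign alone, 48 of 56 copies were lower as deposited, where 5666 of 12423 features were. With array medians subtracted 49 of 56 copies were lower by sign, where 7043 of 12433 features were.

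psmd14.L and psmd7.L had the smallest p-values between clutches. psmd14.L encodes the deubiquitinase of the cap, which cuts the ubiquitin chain from the substrate, and in yeast and mammals it works as a dimer with the subunit encoded by psmd7. psmd14.L was at 11.09, 11.18, 10.86 and 10.94 on the clutch A arrays, ethanol first, and at 10.01, 10.06, 10.43 and 10.29 on those of clutch B. The clutches do not overlap, and the log2 fold change was −0.82 (standard error 0.13), 1.76-fold lower, with an adjusted p of 0.0395 in limma. An exact permutation test, two-sided, gave p = 0.0286 over these 8 arrays, the smallest that 4 against 4 allows. Any copy without overlap of the clutches gets that value, so that it adds no support here. Leaving out any 1 array raised the adjusted p to between 0.0654 and 0.122. psmd7.L was at 10.25, 10.17, 10.04 and 9.99 in clutch A and 9.62, 9.83, 9.60 and 9.46 in clutch B, again with no overlap. Its log2 fold change was −0.49 (standard error 0.09) with an adjusted p of 0.0518 in limma, and 0.0484 with the pair as a random block. This rests on 1 of its 2 probe sets. The dimmer had −0.79 (adjusted p = 0.0204 in limma with each probe set on its own), whereas the brighter had −0.18 (adjusted p = 0.310), with clutch A values down to 10.12 and clutch B values up to 10.32.

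By subcomplex, the clutch difference covered the alpha ring and the assembly factors most evenly. All 11 alpha copies were lower in clutch B, 7 of them at an unadjusted p under 0.05 in limma (12.1% of all features), with a median of −0.28. Without ethanol array 3 all 11 stayed lower, but only 1 at that threshold, where 8.63% of all features were. psma5.S had −0.39 (standard error 0.10, adjusted p = 0.0928 in limma), and psma3.L, at 13.20, 13.23, 12.96 and 13.08 in clutch A and 12.70, 12.96, 12.90 and 12.51 in clutch B, had −0.35 (standard error 0.11). All 7 assembly factors were lower, 5 of them at an unadjusted p under 0.05 in limma and 2 without ethanol array 3, with a median of −0.33 over all arrays. The lowest was psmd10.L at −0.73 (standard error 0.20, adjusted p = 0.107 in limma), with clutch B values of 7.92, 7.74, 7.67 and 7.08 against 8.58, 8.39, 7.80 and 8.55 in clutch A.

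The beta ring lay nearer to 0 between clutches than the alpha ring, a difference that was not tested. Of its 7 constitutive copies 4 were lower, with a median of −0.05. psmb2.L and psmb1.S were lower, at −0.30 (standard error 0.11) and −0.25 (standard error 0.09). psmb2.S had 0.19 (standard error 0.12), and psmb6.L, which carries the caspase-like site, had 0.11 (standard error 0.11), which was −0.09 with array medians subtracted. With that scaling the median was −0.26 for the beta ring and −0.40 for the alpha ring. The immunoproteasome copies psmb8.L and psmb9.S had 0.55 (standard error 0.44) and 0.42 (standard error 0.32).

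In the ATPase ring 4 of 6 copies were lower in clutch B, with a median of −0.14. psmc1.L had −0.39 (standard error 0.08, adjusted p = 0.0574 in limma) and psmc4.L −0.25 (standard error 0.08), both without overlap of the clutches. For psmc1.L this holds for the average of its 2 probe sets. In 1 of them the clutches overlap, with 9.76 on ethanol array 3 and 9.66 on cyclopamine array 2. psmc3.L had 0.22 (standard error 0.14) and psmc5.S 0.12 (standard error 0.13). In the non-ATPase cap 15 of 17 were lower with a median of −0.17. The exceptions were psmd2.L, a scaffold subunit, at 0.26 (standard error 0.31), and psmd13.S at 0.01 (standard error 0.10), which was −0.17 with array medians subtracted and −0.07 as deposited. Among activators, psme3.L had −0.43 (standard error 0.14) and psmf1.L −0.32 (standard error 0.09), with clutch values that overlap for the former and not for the latter, while psme4.L had 0.09 (standard error 0.10).

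The response to cyclopamine differed between clutches for psmd14.L alone at an unadjusted p under 0.05, 1 of 56 against 3.72% of all features. In clutch A it was lower with cyclopamine, 11.09 to 10.86 in pair 1 and 11.18 to 10.94 in pair 2. In clutch B it was higher, 10.01 to 10.43 in pair 3 and 10.06 to 10.29 in pair 4. The interaction was 0.56 (standard error 0.17) with an unadjusted p of 0.0153 and an adjusted p of 0.999 in limma, so that it did not pass the test. Over all 8 arrays its log2 fold change with cyclopamine was 0.05 (standard error 0.31), and −0.0027 with array medians subtracted.

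The .L and .S copies were compared by their changes, since levels of different probe sets are not on 1 scale. The 31 .L copies had a median log2 fold change with cyclopamine of −0.13, with 27 below 0, and the 25 .S copies had −0.10, with 22 below 0. For 13 genes both copies were measured, and none of these pairs of copies had an unequal response at an unadjusted p under 0.05 in limma over 914 symbols, where 3.83% of all symbols did. The copies had the same sign in 11 of 13 genes, against 67.5% of all symbols, and their median absolute difference was 0.08 against 0.12. Both copies share the arrays, and whether a probe set of a copy also binds RNA of the other was not tested.

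The largest differences in response to cyclopamine belonged to psmd14, psma7 and psmc3. The .L minus .S difference was 0.24 (standard error 0.18) for psmd14, −0.23 (standard error 0.14) for psma7 and −0.19 (standard error 0.36) for psmc3. For psma7 the .L copy had −0.30 and the .S copy −0.07, and the .S copy was at 11.56, 11.61, 11.36 and 11.69 with ethanol and 11.59, 11.51, 11.61 and 11.23 with cyclopamine. The smallest differences were those of psmb2 and psma3, at 0.00 (standard errors 0.20 and 0.14), and of the ubiquitin receptor adrm1, at −0.02 (standard error 0.14). The standard errors leave room for unequal responses of the size seen in psma7.

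**Figure D5:**
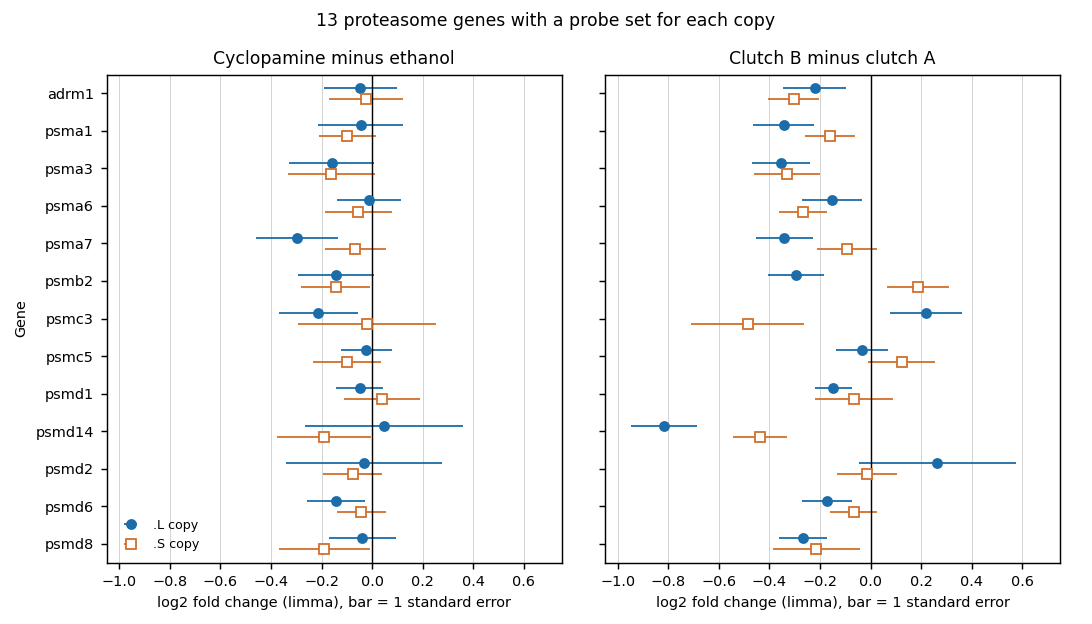
log2 fold change of the .L copy (filled circles) and the .S copy (open squares) of 13 genes, cyclopamine minus ethanol on the left and clutch B minus clutch A on the right, with 1 standard error as a bar. On the left the bars of each gene overlap, and on the right those of psma7, psmb2, psmc3 and psmd14 do not.

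Between clutches, the copies of 3 of 13 genes differed unequally at an unadjusted p under 0.05 in limma, against 20.8% of all symbols, and 0 at an adjusted p under 0.05, against 2.84%. For psmb2 the .L copy had −0.30 and the .S copy 0.19, a difference of −0.48 (standard error 0.12, adjusted p = 0.0754 in limma). psmb2.L read 11.50, 11.50, 11.28 and 11.46 in clutch A and 11.13, 11.31, 11.24 and 10.87 in clutch B, and psmb2.S read 9.49, 9.47, 9.28 and 9.35 and then 9.40, 9.90, 9.62 and 9.43. The values of both copies overlap between the clutches. psmc3 ran the opposite way, with 0.22 for the .L copy and −0.49 for the .S copy and a difference of 0.71 (standard error 0.29). psmc3.S was dim, at 5.59 to 6.80 where the floor was 5.45. For psmd14 both copies were lower, at −0.82 and −0.44, with a difference of −0.38 (standard error 0.14).

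The 7 probe sets annotated to both copies of a gene were not assigned to either. With cyclopamine 6 of them were below 0 and 1 above, from −0.26 to 0.07. At an unadjusted p under 0.05 in limma 2 were lower, where 3.88% of all features were lower in the main fit. These were the probe sets of psmc6, at −0.26 (unadjusted p = 0.0420 in limma), and of psmd6, at −0.26 (unadjusted p = 0.0286 in limma). Both were lower in each pair, as 9.41% of all features were. In clutch B 6 were lower and 1 higher, from −0.17 to 0.15, with 0 at that threshold, where 12.1% of all features were lower and 9.8% higher. Several probe sets for 1 copy did not always give the same size. The probe sets of psma5.S ran from −0.45 to −0.15 with cyclopamine, and those of psmc1.L gave −0.28 and −0.08.

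Genes of the wider pathway around the proteasome lay nearer to 0 than its own genes, a difference that was not tested. Of 33 copies from the activating enzymes, the shuttles and proteasome-bound enzymes, the p97 segregase with its partners, and the regulators of proteasome gene expression, 21 were below 0 with cyclopamine, with a median of −0.03. At an unadjusted p under 0.05 in limma 1 was lower and 1 was higher, where 480 and 297 of all 12380 features were. usp14.S, a deubiquitinase bound to the cap, was at 11.36, 11.18, 10.90 and 10.93 with ethanol and 10.78, 10.70, 10.84 and 10.45 with cyclopamine. Its groups do not overlap, and 286 of all 12380 features were lower with cyclopamine without overlap. usp14.S was lower in 4 of 4 pairs, at −0.40 (standard error 0.14, adjusted p = 0.700 in limma). nfe2l2.L, a transcription factor of the oxidative stress response that also acts on proteasome genes in mammals, had 0.27 (standard error 0.10, adjusted p = 0.732 in limma) and was higher in 3 of 4 pairs. The p97 partners faf1.S and ubxn1.S had −0.23 (standard error 0.10) and 0.16 (standard error 0.11).

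Between clutches, 20 of the 33 copies were lower in clutch B, 3 of them at an unadjusted p under 0.05 in limma, and 1 was higher at that threshold. Of all features, 51.5% were lower, 12.1% lower at that threshold and 9.8% higher at it. The median of the 33 copies was −0.02, where the 56 proteasome copies had −0.23. syvn1.L, a ubiquitin ligase of the endoplasmic reticulum, was higher in clutch B by 0.77 (standard error 0.13, adjusted p = 0.0471 in limma), at 7.61, 8.14, 8.22 and 7.95 in clutch A and 8.68, 8.56, 8.88 and 8.87 in clutch B. The activating enzyme gene uba1.L had 0.31 (standard error 0.14). faf2.S and vcp.S, which encodes p97 itself, had −0.40 (standard error 0.10) and −0.26 (standard error 0.08).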

How the data were processed

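Total RNA from 8 pools of hindlimb buds was hybridised to Affymetrix Xenopus laevis Genome arrays. The deposited table holds linear intensities, 1 for each probe set on each array, which the authors call normalized. The background correction, the summarization of probes and the software were not given in the sources used here. Trimmed of 2% of probe sets at either end, the mean of each array was 500.07 to 500.08. Of 15611 probe sets, 120 controls were removed. In the platform annotation 9304 probe sets had 1 symbol, 195 several and 5992 none, and 9227 were matched to RefSeq by gene ID. Intensities were quantile normalized, set to a floor at the 20th percentile (43.7), taken to log2 and averaged over the probe sets of a symbol. Features above the floor on at least 1 array (12380 of 13718) were fitted with limma 3.58.1 in R 4.3.3, with Benjamini-Hochberg adjustment over all of them and a threshold of 0.05. The treatment fit had no covariate, after the two-sample comparison of the study's methods, and the clutch fit had treatment as a covariate. The number of arrays limits the precision. Differences of .L and .S were fitted within arrays over 914 symbols. The steps were tested on simulated data. Figures were drawn with matplotlib 3.10.9.

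Members and gene lists were chosen with earlier results of these data known. Named are all immunoproteasome, activator, inhibitor and assembly genes, and the both-copy probe sets that were lower at an unadjusted p under 0.05 with cyclopamine. In each ring and in the non-ATPase cap, the smallest p-values in each direction are named (up to 2, for treatment and for clutch), with the homeologs of the largest and smallest difference in response and the smallest p-values of the wider pathway. Replicate numbers pair the arrays, and the sample titles give same-numbered arrays the same clutch and group. The series' design says that both pools of a pair were exposed and processed together. The deviations of same-numbered arrays from their group means correlated at 0.35, 0.51, 0.30 and −0.10 over all features. Across pairs 3 and 4, ethanol array 3 with cyclopamine array 4 gave 0.51 and ethanol array 4 with cyclopamine array 3 gave 0.28. Alternatives covered the scaling, the floor, the filter, the collapse of probe sets, blocks for replicate and clutch, and each array left out.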

Additional observations from a re-analysis of the deposited data

Results flagged for a closer look

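Of 128 tests of a group of 4 arrays for a value far from the other 3, 2 stood out, and chance gives about 1 in 20. psmd2.S, a scaffold subunit of the cap, was at 12.01 on ethanol array 1 and between 11.72 and 11.77 on the other ethanol arrays. psma4.L, of the alpha ring, was at 10.50 on cyclopamine array 4 and between 10.94 and 10.99 on the other cyclopamine arrays.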

How the results depend on the processing

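Over 112 results and 1655 alternative values, 1586 were counted as the same. For a gene this meant the same sign and side of the threshold, whatever the size, and for a count about the same size. For a median it meant a change within the spread between pairs or between arrays of a clutch, whatever the sign. The clutch median of the beta ring, −0.05, was thus counted as the same at 0.03 without ethanol array 3. Most proteasome genes differed by less than 1 standard error between treatments, so that their directions could turn with 1 array, and the 8 arrays limit what could be detected. No alternative gave a proteasome gene an adjusted p under 0.05 between treatments. The paired analysis, with the replicate block, left 1 copy lower at an unadjusted p under 0.05 (psmg3.L, adjusted p = 0.519 in limma). In that fit 679 of all 12380 features were lower at that threshold. The replicate block changed no other call, while the clutch block gave 5, where 6.01% of all features were lower. In the main fit without 1 array the count ran from 0 to 8, where 2.69% to 4.99% of all features were lower.

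Between clutches, 2 copies were lower at an adjusted p under 0.05 in limma with array medians subtracted, with each probe set on its own, with a variance trend and robust fitting, and with the pair as a random block, and 0 with the floor at the 10th percentile. With array medians subtracted 102 of 12433 features were lower at that threshold, and with the random block 106 of 12380. The random block was chosen after the data were seen. Without any 1 array the number of copies lower at an adjusted p under 0.05 was 0. That of copies lower at an unadjusted p under 0.05 in limma ran from 8 to 25, where 8.63% to 12.4% of all features were lower. That of copies higher ran from 0 to 1, where 9.8% of all features were higher in the main fit. The number with an unequal response between clutches at that threshold ran from 1 to 2, against 3.72% of all features with all arrays. With array medians subtracted, the median clutch difference became −0.257 in the beta ring, −0.279 in the ATPase ring and −0.271 in the non-ATPase cap; the cause was not tested.

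Directions turned for a few genes near 0. With array medians subtracted, psmd1.S had −0.0336 and psmd14.L −0.0027 with cyclopamine, and psmb6.L had −0.0914 and psmd13.S −0.169 in clutch B. On the deposited intensities psmd1.S had −0.000181 with cyclopamine and psmd13.S −0.074 in clutch B. With 1 array left out, the treatment difference ran from −0.225 to 0.396 for psmb8.L, from −0.0909 to 0.142 for psmd1.S, from −0.146 to 0.241 for psmd14.L, from −0.172 to 0.178 for psme1.S, from −0.232 to 0.003 for pomp.S and from −0.0941 to 0.00792 for psme4.L. The clutch difference ran from −0.0373 to 0.0811 for psmd13.S and from −0.105 to 0.000655 for psmd5.L.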
